A study of Mus musculus with 5 samples.

Results

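Small resting pre-B cells that carried *Rag1* or *Rag2* transcripts were selected from single-cell RNA sequencing of bone marrow in droplets, in which each captured RNA molecule is counted once by its unique molecular identifier (UMI). A barcode was kept when it held at least 500 UMIs of which at most 10% came from mitochondrial genes. A kept barcode was taken as a small pre-B cell when it had at least 1 UMI of *Ebf1*, a transcription factor of the B lineage, and at least 1 UMI of *Rag1* and *Rag2* together. It also had no UMI of the proliferation genes *Mki67* and *Top2a*, under 5 UMIs of *Dntt*, *Vpreb1* and *Igll1* together, under 3 of *Ighd* and *Ms4a1* together, and under 2 of *Cdkn2a* and *Tmem119* together. This gave 264 cells of 29679 kept barcodes, or 0.890%. The gate therefore fixed the levels of these genes, which are described below without a test.

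The marrow came from 5 C57BL/6J mice, each 8 weeks old and each given 1000 BCR-ABL1 pre-B ALL (acute lymphoblastic leukemia) cells through the tail vein without irradiation. All 5 mice were given the transplant, so the series holds no untransplanted mouse. 1 mouse was killed directly after transplantation (day 0), and 1 each at days 3, 6, 9 and 12. Cells flushed from the femurs and tibias were pooled with cells freed from the crushed bones by collagenase and DNase, and red cells were lysed. With 1 mouse per day a difference between days cannot be told apart from a difference between mice or libraries, and no test between days was made. The transplanted leukemia cells are themselves pre-B cells, and host and transplanted cells were not told apart here. By the study's own flow cytometry, leukemia cells were not detected in the earliest marrow, were rare in the next ones and were most frequent in the last.

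Small pre-B cells are the stage after the dividing large pre-B cells. The pre-B cell receptor, made of the Igμ heavy chain and the surrogate light chain proteins Vpreb and Igll1, has by then driven proliferation and has been shut down. The cells leave the cell cycle and express the RAG1 and RAG2 proteins again, which together cut the light chain loci so that a V and a J segment can be joined, first mostly at the kappa locus and then at lambda. A cell that makes a working light chain carries IgM at its surface and becomes an immature B cell.

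The genes that give the cells their name were placed as follows in GRCm38, the assembly of the deposited files (mm10). *Rag1* lies at chr2:101638282-101649501 on the minus strand, and *Rag2*, its neighbour in the opposite orientation, at chr2:101624718-101632529 on the plus strand. *Dnajc7* lies at chr11:100582818-100620168, *Bach2* at chr4:32238804-32586108, *Akap12* at chr10:4266380-4359470 and *Cecr2* at chr6:120666369-120771190. The RefSeq promoter table of GRCm38.p6 held 4 of these 6 genes, namely *Rag1*, *Rag2*, *Bach2* and *Dnajc7*. The 250 bases before the start sites of *Rag1* and *Rag2* are shown because these genes define the cells, and those of *Dnajc7* because it was detected in 97.0% of the cells. *Dnajc7* has 2 listed starts.

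*Rag1* promoter, chr2:101649533-101649782, minus strand: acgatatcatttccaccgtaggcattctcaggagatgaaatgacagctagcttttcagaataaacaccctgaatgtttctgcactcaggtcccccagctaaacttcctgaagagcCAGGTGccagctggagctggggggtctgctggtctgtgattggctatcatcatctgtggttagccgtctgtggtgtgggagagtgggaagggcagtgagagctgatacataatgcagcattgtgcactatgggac
*Rag2* promoter, chr2:101624462-101624711, plus strand: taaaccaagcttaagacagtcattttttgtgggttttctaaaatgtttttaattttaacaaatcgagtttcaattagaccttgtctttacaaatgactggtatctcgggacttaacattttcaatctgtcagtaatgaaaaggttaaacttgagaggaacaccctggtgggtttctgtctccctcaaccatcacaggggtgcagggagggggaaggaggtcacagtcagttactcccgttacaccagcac
*Dnajc7* promoter at the upstream start, chr11:100619628-100619877, minus strand: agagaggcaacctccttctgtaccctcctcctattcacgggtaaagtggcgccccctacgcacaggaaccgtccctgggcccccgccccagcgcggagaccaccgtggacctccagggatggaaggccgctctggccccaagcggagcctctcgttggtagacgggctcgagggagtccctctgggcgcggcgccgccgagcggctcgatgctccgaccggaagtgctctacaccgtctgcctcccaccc
*Dnajc7* promoter at the downstream start, chr11:100613353-100613602, minus strand: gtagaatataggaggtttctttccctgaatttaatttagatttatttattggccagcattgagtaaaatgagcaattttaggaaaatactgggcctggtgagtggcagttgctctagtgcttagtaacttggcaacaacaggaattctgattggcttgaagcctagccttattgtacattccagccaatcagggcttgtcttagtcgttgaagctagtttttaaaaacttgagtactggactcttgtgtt

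Each sequence reads 5′ to 3′ and ends at the base before the start, and capitals mark the only match found to 4 motifs searched on both strands. The motifs were the E-box CAGGTG, bound by E proteins such as E2A, the palindromic EBF motif, the FOXO motif TGTTTAC and the AP-1 motif TGANTCA. The *Rag1* promoter held 1 E-box, 135 to 130 bases before its start, and 17.2% of the 32851 promoters of the table held this motif somewhere in the same length. The other motifs were in 0.779% (EBF), 3.17% (FOXO) and 6.75% (AP-1) of promoters. G and C made up 50.8% of the *Rag1* and 41.2% of the *Rag2* promoter, and 68.8% and 38.8% of the *Dnajc7* promoters in the order shown. A match is a description of the letters and says nothing of whether a factor binds there.

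The 5 libraries held between 33425695 and 43554233 UMIs, and between 4870 and 6944 barcodes were kept in each. Of the distinct kept barcodes, 494 occurred in more than 1 library. Of the small pre-B cells, 8 shared their barcode with a kept barcode of another library and none with a small pre-B cell of another library. The cells were shallow, with a median of 1669, 1742, 1888, 1519.5 and 1782.5 UMIs from day 0 to day 12 and a range over all cells of 524 to 21655. By library the median was 2828 to 4251 UMIs in pro-B and early pre-B cells, 9452 to 11153 in cycling B-lineage cells and 1630 to 2110 in mature B cells. In the cycling cells with at least 2 *Cd79a* UMIs it was 7075 to 9714. The gates count UMIs, so the depth of a cell can bear on the stage it falls in. Levels are given as counts per 10000 UMIs over the summed counts of the cells of a library, with exact Poisson 95% intervals where an interval is given, and shares with exact binomial (Clopper-Pearson) 95% intervals. Both cover counting error only.

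Small pre-B cells were found in every library and were fewest at day 12. There were 59 at day 0, 44 at day 3, 83 at day 6, 70 at day 9 and 8 at day 12. As a share of kept barcodes these were 0.943% (0.718 to 1.21), 0.903% (0.657 to 1.21), 1.37% (1.10 to 1.70), 1.01% (0.787 to 1.27) and 0.144% (0.0621 to 0.283). The interval at day 12 lay below those of the other 4 days, and the intervals of days 0, 3 and 9 overlapped one another. The place of day 6 as the highest rested on the limit on mitochondrial UMIs, since with a limit of 5% its share was 0.712% and that of day 0 the highest at 0.878%, while day 12 was still the lowest at 0.149%. As a share of the barcodes with an *Ebf1* UMI they were 4.88% (3.74 to 6.26) at day 0, 6.66% (4.88 to 8.83) at day 3, 6.75% (5.41 to 8.30) at day 6, 6.39% (5.01 to 8.0) at day 9 and 4.21% (1.84 to 8.13) at day 12. On that base the interval of day 12 overlapped all others, since barcodes with *Ebf1* were themselves few at that day, 190 against 661 to 1230 at the other days.

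**Figure D1:**
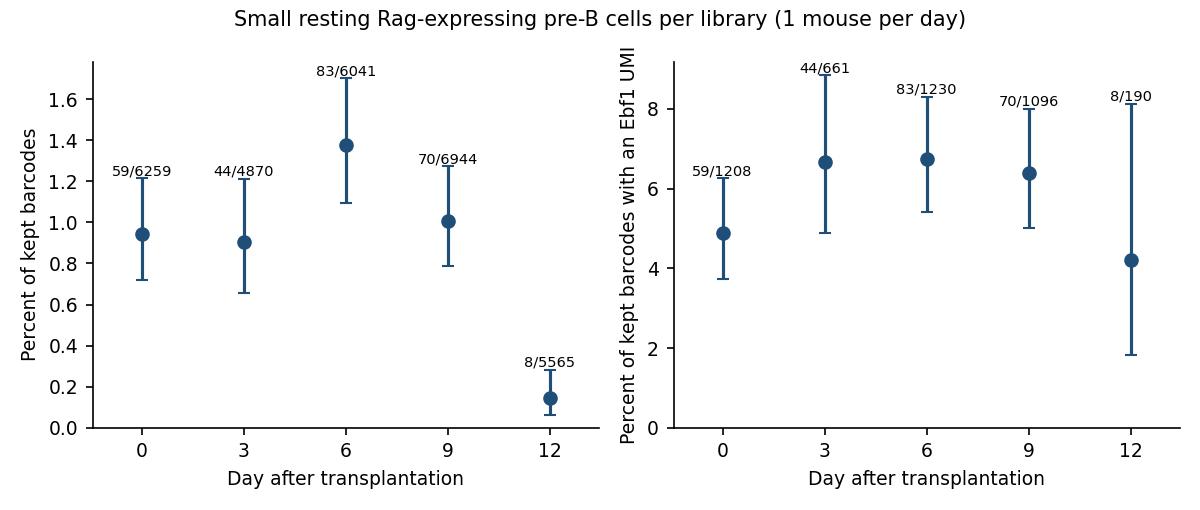
Small pre-B cells as a percent of kept barcodes (one panel) and of barcodes with an Ebf1 UMI (other panel) against the day after transplantation, 1 mouse per day; points are shares and bars exact binomial 95% intervals. The share of kept barcodes is lowest at day 12 (0.144%, 8 cells) and highest at day 6 (1.37%) at the mitochondrial limit of 10%, while the intervals of the share of Ebf1 barcodes overlap at all 5 days.

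The 5 genes given with the label, *Rag1*, *Akap12*, *Cecr2*, *Bach2* and *Dnajc7*, were each at a higher level in these cells than in the other B-lineage stages compared, over the summed counts of all libraries. *Dnajc7*, a co-chaperone of HSP70 and HSP90, stood at 35.9 counts per 10000 UMIs in small pre-B cells, against 4.67 in pro-B and early pre-B cells, 3.65 in cycling cells, 3.51 in mature B cells and 0.43 in neutrophils. Barcodes taken as neutrophils held at least 100 UMIs of *S100a8* and *S100a9* together, and no monocyte marker entered their gate. *Bach2*, a transcriptional repressor of the B lineage, stood at 5.26 against 0.92, 1.46, 0.98 and 0.02 in the same order. *Cecr2*, a bromodomain protein, stood at 4.19 against 1.14, 1.10, 0.33 and 0.01. *Akap12*, a scaffold protein that binds protein kinase A, stood at 3.23 against 1.30, 0.80, 0.30 and 0.01. *Rag1* was part of the gate and the other markers were named from these cells. Their levels are therefore a description and give no support to the label. None was at 0 in any library, which for *Rag1* the gate favoured.

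By day, from 0 to 12, the level of *Dnajc7* was 34.4, 33.2, 42.2, 30.7 and 43.1, and 96.6%, 95.5%, 96.4%, 98.6% and 100% of the cells had a UMI of it. *Bach2* was at 4.91, 6.02, 5.58, 4.26 and 10.3, *Cecr2* at 4.48, 3.52, 4.08, 4.33 and 5.79, and *Akap12* at 4.91, 2.27, 3.49, 1.95 and 6.43. The highest value of all 4 was that of the 8 cells of day 12, where the interval of *Dnajc7* ran from 33.4 to 54.8 and that of *Akap12* from 3.09 to 11.8. *Rag1*, which the gate used, was at 7.75, 5.91, 6.55, 6.15 and 7.08.

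**Figure D2:**
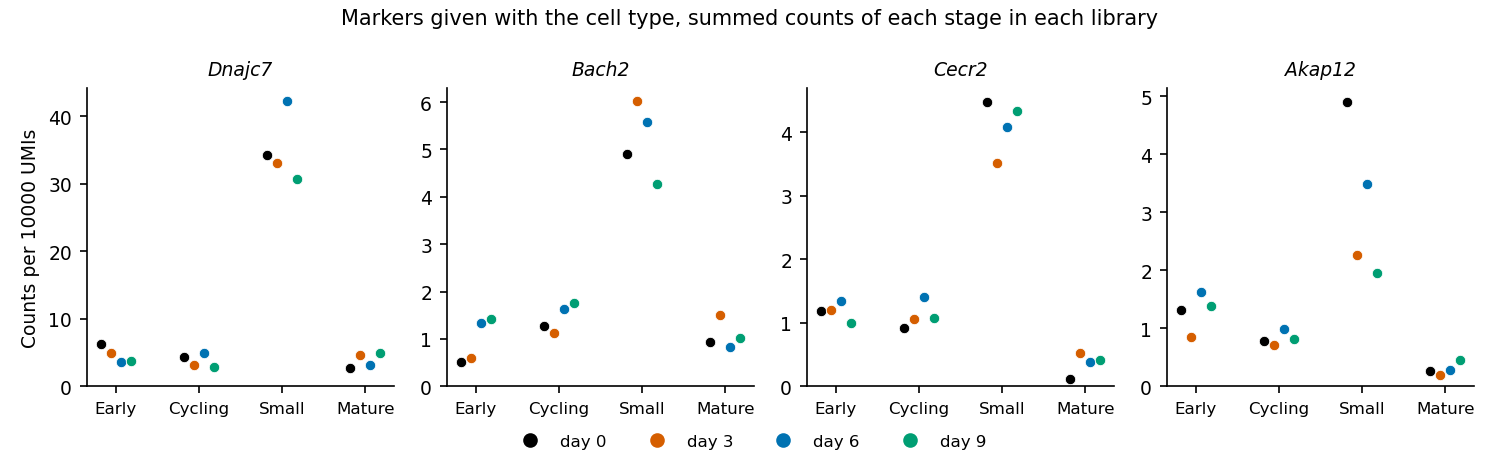
Levels of the marker genes given with the label, in counts per 10000 UMIs of summed counts, for each B-lineage stage, with 1 point per library (days 0, 3, 6 and 9). Dnajc7 lies at 30.7 to 42.2 in small pre-B cells of the 4 libraries, above every point of the other stages.

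Rag transcripts were sparse in single cells. *Rag1* alone was seen in 198 cells, *Rag2* alone in 37 and both in 29. Of the 264 cells 146 held 1 Rag UMI, 76 held 2, 40 held 3 to 5 and 2 held 6 or more. The level of *Dnajc7*, which the gate did not use, was 35.4, 33.5, 42.3 and 39.0 across these groups. The 1732 barcodes just outside this limit, within all other criteria but with no Rag UMI, had 4.94. They differed in other genes too. The neutrophil gene *S100a8* was at 854 in them against 183 in the cells with 1 Rag UMI. The B cell receptor chain *Cd79a* was at 11.7 against 22.9. Genes that are high in mature B cells were higher in them, with *Cd74* at 49.5 against 6.43, *H2-Aa* at 11.9 against 1.47 and *Igkc* at 65.3 against 41.8. *Dnajc7* was named from these cells, so its levels here and at the other limits are a description and give no support to the gate.

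The cells near the other limits were few. On the surrogate light chain side 234 cells had no UMI of *Dntt*, *Vpreb1* and *Igll1*, 27 had 1 to 3 and 3 had 4, with *Dnajc7* at 37.6, 28.8 and 11.8. No barcode had 5, and the 129 with 6 or more had 5.70. On the mature side 209 cells had no UMI of *Ighd* and *Ms4a1*, 44 had 1 and 11 had 2, with *Dnajc7* at 37.0, 32.4 and 29.3 and *Cd74*, the invariant chain of MHC class II, at 6.38, 9.58 and 4.88. The 5 barcodes with 3 UMIs had *Dnajc7* at 8.63 and *Cd74* at 48.9. The 18 barcodes with 1 UMI of *Mki67* or *Top2a* had *Dnajc7* at 31.7, and the 88 with 2 or more had 10.6. *Ebf1* had 1 UMI in 6 cells and 2 or more in 258, and the 78 barcodes without it had *Dnajc7* at 1.61 and the neutrophil gene *S100a8* at 1389.

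Traces of other cells were measured beside these values. *Cd79a*, a signalling chain of the B cell receptor, had at least 2 UMIs in 229 of 264 cells. Neutrophil genes were present in every library. The summed level of 10 neutrophil markers was 229, 385, 311, 1092 and 865 from day 0 to day 12, against 3912 to 4893 in neutrophils. In 13 cells, 9 of them at day 9, more than 5% of UMIs came from *S100a8* and *S100a9*, and 12 cells had at least 2 UMIs of markers of another lineage. The summed level of 10 monocyte and macrophage markers was 77.9, 22.0, 68.7, 47.3 and 14.8 from day 0 to day 12, against 128 to 192 in neutrophils, and that of 9 plasmacytoid dendritic markers was 3.41 to 10.95, against 11.9 to 19.4. Of the first list *Lyz2* made up most, at 64.9, 18.2, 55.2, 38.4 and 9.65. The summed level of 12 T cell markers was 0 to 1.21 and of 9 erythroid markers 0 to 1.22. The T cell genes *Cd3g* and *Cd28*, the NK cell receptor gene *Ncr1* and the erythroid gene *Klf1* were at 0 in the small pre-B cells of all libraries.

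Small pre-B cells were compared with 3 other B-lineage stages of the same libraries, to ask which genes set this stage apart. Pro-B and early pre-B cells held 5 or more UMIs of *Dntt*, *Vpreb1* and *Igll1* (217 cells), and mature B cells held 3 or more of *Ighd* and *Ms4a1* with no Rag UMI (1079 cells). Cycling B-lineage cells held 2 or more UMIs of *Mki67* and *Top2a* (631 cells). Since only 64.3% to 70.7% of the cycling barcodes had at least 2 *Cd79a* UMIs, the values for single genes are those of the 424 that did, a choice made after the data were seen. The counts were summed per library, and edgeR's quasi-likelihood test was run with the library as a block on days 0, 3, 6 and 9 (n = 4 libraries, 256 of the cells), with Benjamini-Hochberg adjustment over all genes tested and a threshold of 0.05. The gate genes were left out. The stages were set apart by gates, so a gene that runs with a gate gene in B cell development differs in part through the selection.

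Against pro-B and early pre-B cells 224 of 2051 genes were higher (10.9%) and 230 lower (11.2%). These counts fell to 126 and 98 without the library of day 6. Against all cycling cells 944 of 5612 genes were higher (16.8%) and 1045 lower (18.6%), and against the cycling cells with *Cd79a* 873 of 4566 were higher (19.1%) and 1024 lower (22.4%). Against mature B cells 294 of 2692 genes were higher (10.9%) and 378 lower (14%). Counts within the gene lists below are to be read beside these shares of all genes. For cycling cells the share is that of the cells with *Cd79a*. The split between higher and lower depended on the scaling for 3 comparisons. With library sizes in place of TMM (trimmed mean of M values) factors the median gene moved up by 0.28 on the log2 scale against mature B cells and 606 genes were higher and 239 lower, and against all cycling cells it moved by 0.17 with 1196 higher and 789 lower. Against the cycling cells with *Cd79a* it moved by 0.11, and the larger number changed sides, with 1039 higher and 873 lower. Log2 differences below are small pre-B cells minus the other stage on the TMM scale, with their standard error, and levels are means ± SD over the 4 libraries.

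The heavy chain and the light chains marked the step from the early stage. *Ighm*, the μ heavy chain, was at 38.9, 45.2, 38.1 and 28.2 counts per 10000 UMIs in small pre-B cells of days 0, 3, 6 and 9 and at 11.1, 9.05, 15.7 and 13.9 in early cells, so that the groups did not overlap. Its log2 difference was 1.59 ± 0.16 (edgeR, adjusted p = 6.49e-05). *Igkc*, the kappa constant region, was at 43.7, 49.1, 40.1 and 26.1 in small pre-B cells and at 3.08, 2.48, 6.00 and 5.34 in early cells (3.23 ± 0.25, edgeR adjusted p = 1.04e-05). Mature B cells stood above small pre-B cells in *Igkc*, with 101, 116, 91.7 and 95.9, and did not overlap with them either (-1.66 ± 0.11, edgeR adjusted p = 8.46e-10). *Ighm* against mature B cells did not pass the test (0.03 ± 0.11, edgeR adjusted p = 0.879). *Igkc* therefore lay between the early and the mature stage in all 4 libraries, while *Ighm* overlapped with the mature one.

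The lambda constant genes *Iglc1*, *Iglc2* and *Iglc3* were among the 10 genes with the largest increase against early cells. *Iglc1* was at 11.6 ± 3.55 against 0.171 ± 0.124 (log2 difference 6.06 ± 0.29, edgeR adjusted p = 8.54e-07), *Iglc2* at 8.76 ± 3.89 against 0.198 ± 0.205 (5.29 ± 0.34, edgeR adjusted p = 3.35e-06) and *Iglc3* at 8.30 ± 2.17 against 0.0552 ± 0.0669 (6.85 ± 0.38, edgeR adjusted p = 2.02e-06). All 3 were higher in 4 of 4 libraries. They are near-identical copies, and how their reads were split among them is uncertain. Against mature B cells *Iglc2* was lower (-1.75 ± 0.18, edgeR adjusted p = 4.46e-07). *Iglc3* was also called lower, and *Iglc1* did not pass the test (-0.38 ± 0.15, edgeR adjusted p = 0.0792).

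Among the genes of B cell receptor signalling, 10 of 19 tested were higher against early cells and 4 lower. Besides the chains these were *Syk*, the kinase that acts directly below the receptor, the receptor chain *Cd79b*, the kinase *Lyn*, the phosphatase *Ptprc* and the co-receptor *Cd72*. *Syk* was at 4.25 ± 1.15 against 1.09 ± 0.22 in early cells (1.96 ± 0.19, edgeR adjusted p = 4.18e-05), and *Cd79b* at 19.4 ± 2.64 against 9.71 ± 1.27 (0.99 ± 0.11, edgeR adjusted p = 0.000102). Of the 4 lower genes, *Vpreb2*, a near-copy of the gate gene *Vpreb1*, had no UMI in small pre-B cells and was at least 92.4-fold lower, by a floor of 3 counts over the group, which follows from the gate. The adaptor *Blnk* and the co-receptor component *Cd81* lost their call without the library of day 6, and so did *Vpreb3*. Against cycling cells 14 of 20 genes of this list were higher and 2 lower. Against mature B cells, where 10.9% of all genes were higher and 14% lower, 3 of 21 were higher (*Vpreb3*, *Syk* and *Blnk*) and 9 lower. The lower genes included the inhibitory receptor *Cd22* (-3.03 ± 0.34) and the phosphatase *Ptpn6* (-2.01 ± 0.19).

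Genes of surface proteins were among the largest differences. *Il2ra*, the interleukin 2 receptor alpha chain CD25 and a classical marker of pre-B cells, was at 1.12, 1.02, 1.13 and 0.853 in small pre-B cells of days 0, 3, 6 and 9. It had 1 UMI in early cells against 57, a ratio of 78.5 (exact interval 13.5 to 3155). It was also higher than in cycling cells (3.92 ± 0.36, edgeR adjusted p = 1.58e-07) and than in mature B cells (4.40 ± 0.38, edgeR adjusted p = 4.46e-08), and its levels in small pre-B cells did not overlap with those of any of the 3 stages. A UMI of *Il2ra* was seen in 17.8% of the small pre-B cells. *Cd2*, an adhesion molecule that B-lineage cells gain at the small pre-B stage, was at 2.76, 2.73, 1.56 and 1.71, and early cells held 1 UMI of it against 113 (ratio 156, exact interval 27.4 to 6202). From mature B cells *Cd2* did not differ past the threshold (0.02 ± 0.18, edgeR adjusted p = 0.955). *Ly6d*, a surface protein of the B lineage, was at 21.5 ± 1.97 against 1.33 ± 0.832 in early cells (4.06 ± 0.30, edgeR adjusted p = 6.79e-06) and lay below mature B cells (-0.67 ± 0.11, edgeR adjusted p = 0.000104).

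Of the other genes with the largest increase against early cells, *Fcrla*, an Fc receptor-like protein inside B cells, was at 7.34 ± 1.33 against 0.591 ± 0.117, *Cd38*, an ectoenzyme, at 2.21 ± 0.524 against 0.180 ± 0.0879, and *Sema4b*, a semaphorin, at 1.53 ± 0.512 against 0.130 ± 0.0469. The remaining one was *Gm43291*, at 5.11 ± 2.24 against 0.435 ± 0.317. The largest decreases after *Vpreb2* were those of *Arpp21*, with no UMI in small pre-B cells and at least 24.7-fold lower, *Myl10* (-5.07 ± 0.54), *Impdh1*, an enzyme of guanine nucleotide synthesis (2 UMIs, -5.0 ± 0.57), the potassium channel *Kcnn4* (1 UMI, -5.0 ± 0.69) and the ETS factor *Erg* (3 UMIs, -4.16 ± 0.48). *Selm*, *Egfl7*, *Pmf1* and *Gm30948* completed the list, with *Pmf1* at 0.336 ± 0.183 against 5.58 ± 0.596.

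**Figure D3:**
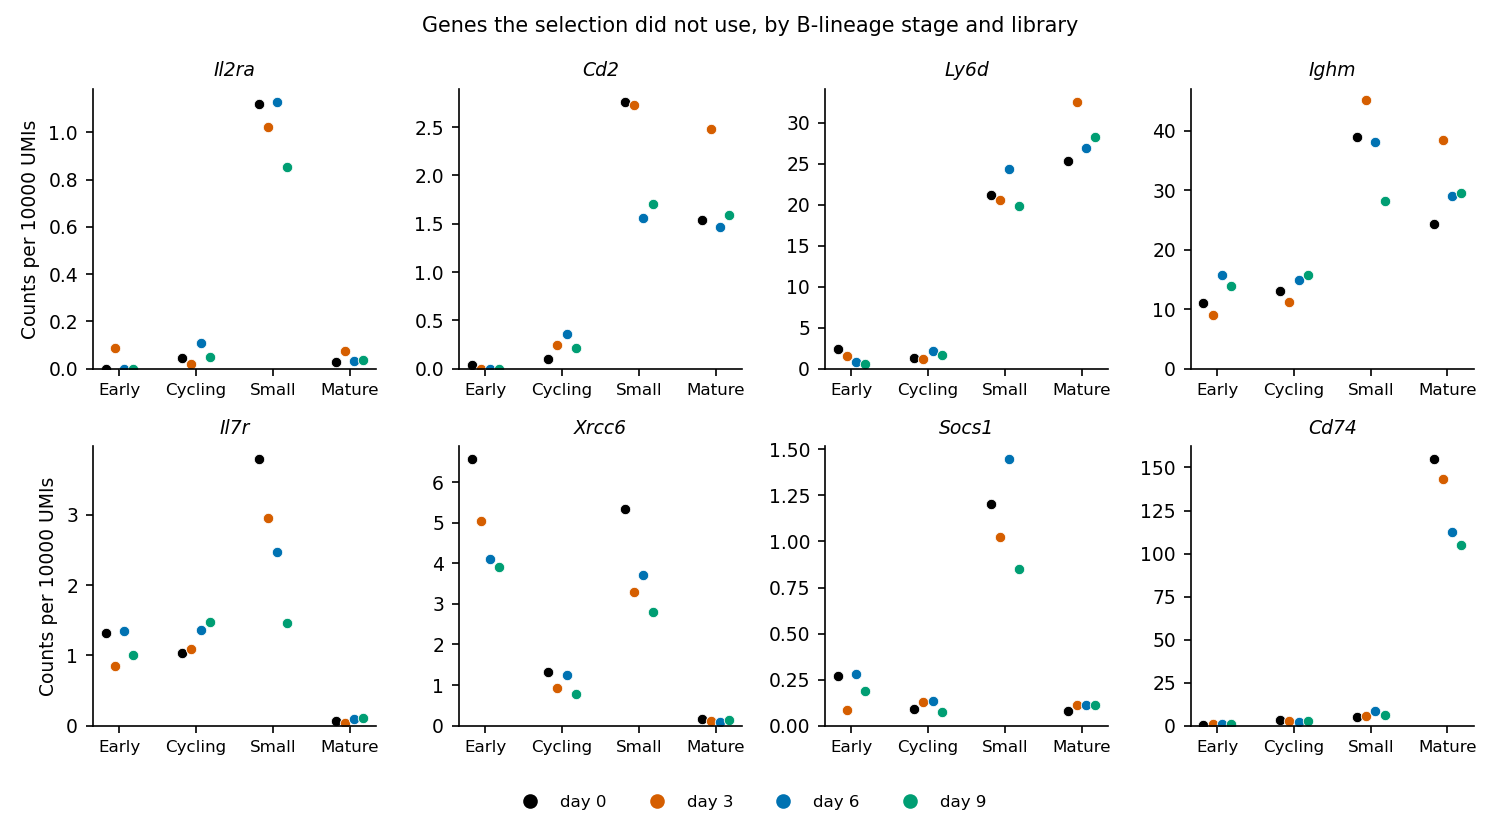
Levels of 8 genes that the selection did not use, in counts per 10000 UMIs of summed counts, for 4 B-lineage stages, with 1 point per library coloured by day. Il2ra and Socs1 are higher in small pre-B cells than in the other 3 stages in every library, Cd74 is highest in mature B cells, and Xrcc6 is lowest in mature B cells.

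Of the genes of interleukin 7 and cytokine signalling 4 of 7 tested were higher against early cells, 8 of 10 were higher and 1 lower against cycling cells, and 6 of 10 were higher and 2 lower against mature B cells. *Il7r*, the receptor of the cytokine that carries pro-B and large pre-B cells through their divisions, was at 3.79, 2.95, 2.47 and 1.46 in small pre-B cells of days 0, 3, 6 and 9. In early cells it was at 1.32, 0.854, 1.34 and 1.0, below all of these values (1.17 ± 0.22, edgeR adjusted p = 0.00315). In cycling cells it was at 1.03, 1.09, 1.36 and 1.47, and the difference (0.90 ± 0.23, edgeR adjusted p = 0.00364) lost its call without the library of day 0. In mature B cells it was at 0.0770 ± 0.0321 (4.65 ± 0.30, edgeR adjusted p = 8.20e-10).

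*Socs1*, an inhibitor of cytokine signalling through JAK kinases, moved with *Il7r*. It was at 1.21, 1.02, 1.45 and 0.853 in small pre-B cells and at 0.271, 0.0854, 0.283 and 0.191 in early cells, with no overlap (2.32 ± 0.34, edgeR adjusted p = 0.000657). Its log2 differences against cycling and mature B cells were 3.29 ± 0.30 and 3.18 ± 0.31, and it was higher in 4 of 4 libraries in each case. The kinases *Pim1* and *Pim2* were higher than in cycling cells (1.19 ± 0.17 and 2.83 ± 0.40) and than in mature B cells (0.97 ± 0.18 and 1.63 ± 0.34).

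Survival genes of the Bcl2 family changed in opposite directions against mature B cells. *Bcl2l1*, which encodes the anti-apoptotic protein Bcl-XL, was at 0.991 ± 0.293 in small pre-B cells against 0.107 ± 0.0565 in mature B cells (3.03 ± 0.34, edgeR adjusted p = 1.18e-06). *Bcl2* was at 0.0654 ± 0.0517 against 0.997 ± 0.197 (-3.97 ± 0.45, edgeR adjusted p = 1.48e-06). *Bcl2l1* was also higher than in early cells (2.35 ± 0.43) and in cycling cells (1.62 ± 0.27). Of the family, 3 members were tested against early cells, 7 against cycling cells and 5 against mature B cells, and *Mcl1* was higher against cycling cells and lower against mature B cells. The last of these calls was lost when scaling used library sizes.

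Genes of end joining, the repair path that closes RAG breaks, were measured for few members of the list. *Xrcc6*, which encodes the Ku70 subunit that binds broken ends, was at 5.34, 3.29, 3.70 and 2.80 in small pre-B cells of days 0, 3, 6 and 9 and at 0.162, 0.113, 0.0903 and 0.131 in mature B cells (4.65 ± 0.23, edgeR adjusted p = 2.22e-11). In cycling cells it was at 1.33, 0.937, 1.24 and 0.779 (1.68 ± 0.16, edgeR adjusted p = 2.37e-07). In early cells it was at 6.57, 5.04, 4.10 and 3.91, and the groups overlapped (-0.38 ± 0.15, edgeR adjusted p = 0.112). Its level was thus lowest in mature B cells in every library. *Polm*, a polymerase that fills in at the joins, was higher than in cycling cells (2.34 ± 0.32) and mature B cells (1.97 ± 0.36), and *Lig4*, the ligase of the path, than in cycling cells (1.53 ± 0.32). *Hmgb1* and *Hmgb2*, DNA-bending proteins that assist RAG cutting and are also high in dividing cells, were lower than in cycling cells (-1.84 ± 0.10 and -2.63 ± 0.17). Against early cells neither passed the test (-0.04 ± 0.13 and -0.04 ± 0.18, edgeR adjusted p = 0.879 and 0.923). In the comparison with mature B cells all 4 genes tested, *Xrcc6*, *Hmgb1*, *Polm* and *Hmgb2*, were higher, and *Hmgb2* (0.71 ± 0.19) lost its call without the library of day 3.

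Among 26 tested transcription factors of the B lineage 13 were higher and 6 lower against early cells. *Spib*, an ETS factor of later B-lineage stages, was at 4.05 ± 0.946 against 0.806 ± 0.0899 (2.28 ± 0.20, edgeR adjusted p = 2.25e-05). *Irf4*, which is known to drive light chain rearrangement, was at 1.55, 2.04, 1.13 and 1.83 against 0.320 ± 0.172 (2.30 ± 0.37, edgeR adjusted p = 0.00116). It was also higher than in cycling cells (1.23 ± 0.22) and mature B cells (1.88 ± 0.23). *Ikzf1*, which encodes IKAROS, was higher than in early cells (1.03 ± 0.20), and *Pax5* passed by a narrow margin (0.65 ± 0.21, edgeR adjusted p = 0.046) and lost its call when any 1 of the 4 libraries was left out. *Lef1*, a factor of pro-B and large pre-B cells, was at 0.369 ± 0.129 against 4.35 ± 1.44 (-3.52 ± 0.22, edgeR adjusted p = 2.62e-06).

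Against cycling cells 19 of 28 factors were higher and 2 lower. *Foxo1*, which activates the Rag genes, was at 1.58 ± 0.540 against 0.359 ± 0.0535 (1.95 ± 0.23, edgeR adjusted p = 3.39e-06). Its difference from early cells did not pass the test (0.48 ± 0.27, edgeR adjusted p = 0.24), and its higher level against mature B cells (0.73 ± 0.23) was lost without the library of day 0, 3 or 6. Against mature B cells 12 of 27 factors were higher and 8 lower. *Sox4* (5.97 ± 0.802 against 0.385 ± 0.0631) and *Myb* (3.86 ± 0.748 against 0.237 ± 0.105), both factors of immature cells, were higher by 3.67 ± 0.18 and 3.66 ± 0.25, while *Bcl11a* (-2.32 ± 0.22) and *Mef2c* (-1.94 ± 0.17) were lower.

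Among genes that hold cells out of the cycle, *Btg1*, an anti-proliferative gene, was at 15.4 ± 2.04 against 5.43 ± 2.08 in early cells (1.53 ± 0.17) and 2.43 ± 0.413 in cycling cells (2.54 ± 0.12). *Btg2* was higher than in early, cycling and mature cells (1.27 ± 0.16, 2.52 ± 0.15 and 1.24 ± 0.14). *Ccnd2*, the D-type cyclin induced by growth signals in B cells, was lower than in all 3 stages, at 0.121 ± 0.0310 against 1.32 ± 0.832, 0.971 ± 0.344 and 1.26 ± 0.485 (-3.42 ± 0.39, -2.97 ± 0.39 and -3.53 ± 0.36). The CDK inhibitors differed in direction against cycling cells, with *Cdkn1b*, which encodes p27, higher (1.12 ± 0.26), and *Cdkn2c* and *Cdkn2d*, which encode p18 and p19, lower (-3.12 ± 0.38 and -0.56 ± 0.19). The call of *Cdkn2d* was lost without the library of day 0, 6 or 9. Against early cells *Cdkn2d* was higher (0.90 ± 0.25), a call lost without the library of day 3, 6 or 9. Of the list of cycle brakes and cyclins 7 of 12 were higher and 1 lower against early cells, 9 of 19 and 4 against cycling cells, and 4 of 13 and 3 against mature B cells.

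The proliferation genes were low against cycling cells, which the gate on *Mki67* and *Top2a* fixed, but not against mature B cells. All 32 tested were below cycling cells, and *Fbxo5*, *Kif22*, *Kpna2* and *Hist1h4d* had no UMI at all in the small pre-B cells of the 4 libraries, at least 22.6-, 15.5-, 13.4- and 12.2-fold lower. *Sapcd2* had none either (at least 9.82-fold), *Ccna2*, *Pbk* and *Cenpm* had 1 UMI each, and the histone transcript *Hist1h2ap* was at 0.286 ± 0.0501 against 18.9 ± 8.32. Against mature B cells 5 of 12 proliferation genes were higher and 0 lower. These were the centromeric histone *Cenpa* (0.80 ± 0.22), the replication helicase subunit *Mcm7* (0.93 ± 0.29), *Hmgb2*, the histone *H2afz* (0.40 ± 0.12) and the tubulin-binding protein *Stmn1* (0.57 ± 0.20). Of these, 4 lost their call without the library of day 3, and *Cenpa* lost it without that of day 9. Against early cells 1 of 11 was higher, *Cenpa* (1.20 ± 0.25), and 4 were lower, *Dut*, *Pcna*, *Tubb5* and *Ran*. Of all genes tested against early cells 10.9% were higher and 11.2% lower.

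Growth genes that the gate did not name followed. Of the MYC-related growth list, which holds genes of ribosome assembly and metabolism, 19 of 19 tested were lower against cycling cells, with *Mif* at 2.39 ± 0.456 against 9.91 ± 1.51 and *Npm1* at 7.01 ± 1.19 against 17.0 ± 4.23. Against early cells 7 of 14 were lower, and *Npm1* (-0.70 ± 0.13, edgeR adjusted p = 0.00382) was lower in 4 of 4 libraries. *Mif*, *Ncl*, *Hspe1*, *Pa2g4* and *Ldha*, 5 of the 7, lost their call without the library of day 6. Against mature B cells 2 of 15 were lower, where 14% of all genes were. Of the glycolysis genes 6 of 9 were lower against cycling cells, among them *Gapdh* (-1.55 ± 0.16).

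The genes with the largest increase against cycling cells, beside the lambda genes, *Il2ra* and *Ly6d*, were *Reln* (5.36 ± 0.56), which encodes the secreted protein reelin, *Gm8369* (4.40 ± 0.30), *Tmem163* (4.05 ± 0.42), a zinc transporter, *Cacna1e* (4.0 ± 0.39), a calcium channel, and *2010309G21Rik* (3.96 ± 0.51). The level of *Reln* was 0.607 ± 0.131 against 0.00919 ± 0.0136. It was also higher than in mature B cells (4.40 ± 0.60, 34 against 5 UMIs).

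The genes of antigen presentation were far below their level in mature B cells. *Cd74* was at 5.25, 5.68, 8.80 and 6.40 in small pre-B cells of days 0, 3, 6 and 9 and at 155, 143, 113 and 105 in mature B cells (-4.55 ± 0.17, edgeR adjusted p = 8.24e-13). The MHC class II genes *H2-Eb1* (0.845 ± 0.371 against 20.7 ± 4.0), *H2-Aa* (1.22 ± 0.961 against 26.4 ± 4.20) and *H2-DMb2* (0.165 ± 0.146 against 5.19 ± 0.833) were lower in the same way. Early cells were lower still in *Cd74*, at 0.847 ± 0.227 (2.97 ± 0.19, edgeR adjusted p = 2.94e-06). No marker kept monocytes out of the neutrophil group, so this group cannot be taken to lack the gene. Neutrophils of the same libraries had *Cd74* at 0.953, 4.33, 5.66 and 3.16 at days 0, 3, 6 and 9. These values were below those of small pre-B cells and above those of early cells (0.508, 0.939, 0.989 and 0.953) in each library, and where the transcripts in neutrophils came from was not tested.

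Other genes of the mature B cell list followed, 20 of 23 lower against mature B cells and 1 higher, *Fcrla*. *Cr2*, the complement receptor CD21, had no UMI in small pre-B cells (at least 11.7-fold lower), and *Fcer2a*, the low-affinity IgE receptor CD23, had 1 against 335. *Gm43603* (-4.78 ± 0.37), the adaptor *Bank1* (-4.62 ± 0.30) and the GTPases *Gimap3* and *Gimap5* (-4.20 ± 0.52 and -4.15 ± 0.44) completed the genes with the largest decrease. Those with the largest increase were *Gfra1*, a co-receptor for GDNF (37 UMIs against 1, ratio 162, exact interval 27.3 to 6565), the ubiquitin hydrolase *Uchl1* (5.77 ± 0.36), *Il7r*, *Xrcc6*, *Reln* and *Il2ra*. *Capsl* (4.21 ± 0.42), the Hippo pathway kinase *Stk3* (4.09 ± 0.34), *Nav2* (4.05 ± 0.49) and *Gm37065* (3.77 ± 0.33) were the others. Each of the 20 genes named in each comparison was changed in the same direction in 4 of 4 libraries, which the rule that named them required.

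Of the genes of migration and adhesion 3 of 11 tested were higher and 0 lower against early cells, 7 of 13 higher and 1 lower against cycling cells, and 3 of 13 higher and 4 lower against mature B cells. Of all genes tested, 10.9%, 19.1% and 10.9% were higher and 11.2%, 22.4% and 14% lower in the same order. *Cxcr4*, the receptor that keeps B-lineage cells near stromal CXCL12, was at 1.55, 2.95, 2.68 and 2.13 in small pre-B cells. It was higher than in early (1.37 ± 0.30), cycling (1.08 ± 0.19) and mature cells (1.03 ± 0.20), and the first of these calls was lost without the library of day 6. *Rgs2*, a regulator of G protein signalling, was higher than in all 3 stages (1.66 ± 0.15, 1.80 ± 0.14 and 1.22 ± 0.16). *Cd93*, a marker of immature B cells, was higher than in mature B cells (2.89 ± 0.29), and *Ccr7*, which guides cells into lymph nodes, was lower (-1.28 ± 0.25). *S1pr1*, an exit receptor, was higher than in cycling cells (3.05 ± 0.35) and its difference from mature B cells did not pass the test (-0.61 ± 0.23, edgeR adjusted p = 0.0597).

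The remaining lists differed in their counts. Of the AP-1 genes 3 of 5 were higher against early cells, 5 of 6 against cycling cells, and 2 of 5 higher and 1 lower against mature B cells. Of the other immediate early genes 3 of 14 were higher and 1 lower against early cells, and 11 of 16 were higher against cycling cells. Against mature B cells 3 of 14 of them were higher and 4 lower. Of the interferon genes 2 of 5 were higher against early cells, 8 of 9 against cycling cells and 0 of 7 against mature B cells. *Ifi27l2a* was at 8.83 ± 1.88 against 2.92 ± 0.866 and 2.79 ± 0.825 in early and cycling cells. Of the heat-shock and chaperone genes, which include *Dnajc7*, 8 of 11 were lower against cycling cells, among them *Hsp90aa1* (-2.05 ± 0.17), and 2 were higher. *Elane*, a neutrophil protease, passed the test as higher against early and mature cells, at 3.31 ± 5.60 against 0.536 ± 0.342 and 0.693 ± 0.297. The second call was lost and its log2 difference turned to -0.47 without the library of day 9, in which most of the small pre-B cells with over 5% neutrophil transcripts lay.

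Light chain transcripts divided the small pre-B cells. *Igkc* was absent from 35 of 264 cells, 82 cells had 1 to 4 UMIs of it, 120 had 5 to 19 and 27 had 20 or more. Neutrophils, which should lack the gene, held *Igkc* at 0.651 to 14.8 counts per 10000 UMIs depending on the library. Of the barcodes in that group, 2 to 28 per library had at least 2 *Cd79a* UMIs. The 35 cells without *Igkc* had the highest levels of the lambda constant genes. *Iglc1* was at 51.8 in them and at 14.5, 6.08 and 5.13 in the cells with 1 to 4, 5 to 19 and 20 or more *Igkc* UMIs. *Iglc2* was at 25, 12.2, 5.0 and 4.63 and *Iglc3* at 45.7, 5.65, 5.17 and 3.00 in the same order.

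As a share of cells with a UMI, *Iglc1* was seen in 54.3% of the cells without *Igkc* and in 29.3%, 24.2% and 22.2% of the others. *Iglc2* was seen in 65.7%, 26.8%, 25% and 25.9% and *Iglc3* in 60.0%, 45.1%, 47.5% and 51.9%. Depth differed between the groups, and the cells without *Igkc* were the shallowest, with a median of 1242 UMIs against 1463, 1958 and 2490. By library, the level of *Iglc1* in cells without *Igkc* was 20.6 at day 0 (9 cells), 93.6 at day 3 (7 cells), 20.1 at day 6 (4 cells) and 60.6 at day 9 (14 cells), above the level over all small pre-B cells of the same library in each case (8.18, 12.9, 9.18 and 15.9). The value at day 6 came from 1 of the 4 cells, and *Iglc3* went the other way at that day, with no UMI in these cells against 6.64, 5.37 and 4.05 in the cells with 1 to 4, 5 to 19 and 20 or more *Igkc* UMIs. At day 12 the 1 cell without *Igkc* had no UMI of *Iglc1*. The cells are not replicates, and no test was made.

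*Cd79a* and *Ly6d* were at higher levels in cells with more lambda UMIs, again as a description. The 96 cells with no UMI of *Iglc1*, *Iglc2* and *Iglc3* had *Cd79a* at 19.5 and *Ly6d* at 11.3, the 54 cells with 1 UMI had 23.6 and 20.3, and the 114 cells with 2 or more had 33.1 and 32.6. *Dnajc7* was at 35.5, 34.5 and 37.1 in these groups, with no such order. *Igkc* was at 38.4, 47.9 and 35.4.

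**Figure D4:**
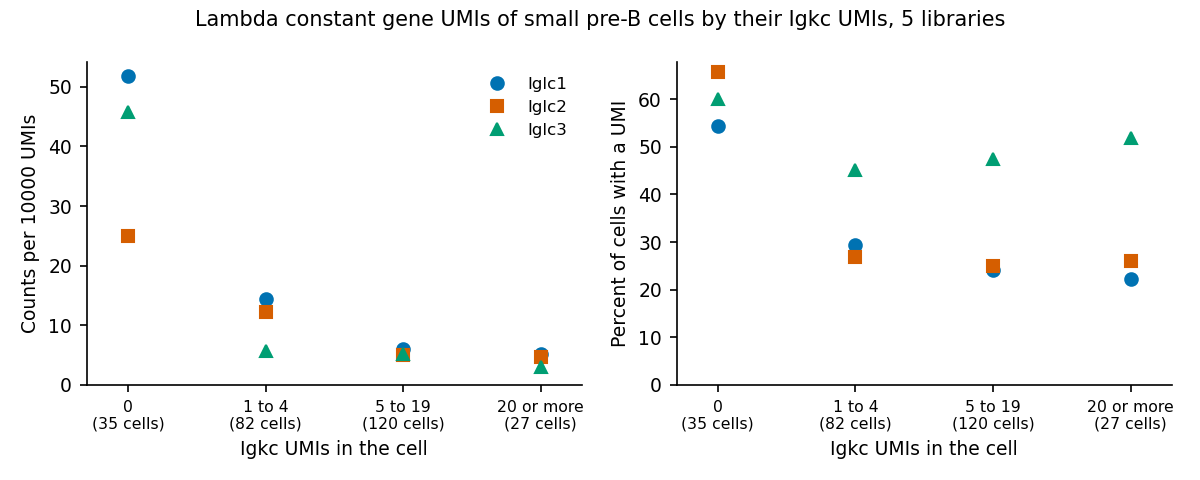
Lambda constant genes in small pre-B cells of 5 libraries grouped by the number of Igkc UMIs in the cell: counts per 10000 UMIs of summed counts in one panel and percent of cells with a UMI in the other. All 3 genes are highest in the 35 cells without Igkc, where Iglc1 reaches 51.8 counts per 10000 UMIs.

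Between days the small pre-B cells of the later libraries were set beside those of day 0, and all 3 comparisons share that 1 library. Of the genes with at least 20 summed counts, 163 of 1456 were higher by 1.5 times at day 3 (11.2%) and 225 lower (15.5%). At day 6 the counts were 237 of 2097 (11.3%) and 271 (12.9%), and at day 9 193 of 1848 (10.4%) and 394 (21.3%). The median log2 difference over all genes was -0.05, -0.04 and -0.16. Day 12 had 8 cells and is given by levels only.

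The AP-1 genes, immediate early genes whose products form the AP-1 transcription factor, were lower than at day 0 in all 3 libraries. *Fos* was at 9.39, 3.86, 3.44, 2.38 and 9.65 counts per 10000 UMIs from day 0 to day 12. *Fosb* was at 5.77, 1.25, 2.9, 2.44 and 3.86, *Jun* at 9.90, 7.27, 5.53, 3.96 and 9.65, *Junb* at 6.29, 3.07, 3.49, 2.38 and 3.86 and *Jund* at 27.5, 11.5, 14.8, 13.8 and 31.5. All 5 were below day 0 at days 3, 6 and 9, and 4, 5 and 5 of them by at least 1.5 times, with a median log2 difference of -1.25, -0.89 and -1.30. At day 12 *Fos*, *Jun* and *Jund* were again near the value of day 0, with intervals of 5.40 to 15.9, 5.40 to 15.9 and 23.3 to 41.7 from 8 cells.

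The other cells of the same libraries moved alike. The median log2 difference of the 5 genes at days 3, 6 and 9 was -1.59, -1.75 and -1.47 in early cells, -1.35, -0.83 and -1.18 in cycling cells, -1.68, -1.03 and -0.68 in mature B cells and -0.59, -0.54 and -0.80 in neutrophils. *Fos* in neutrophils was at 11.2, 6.12, 7.64, 6.37 and 11.2 from day 0 to day 12. Of the other immediate early genes 6 of 13, 8 of 16 and 9 of 15 were lower by 1.5 times in small pre-B cells at days 3, 6 and 9, with medians of -0.36, -0.55 and -0.62. Of all genes, 15.5%, 12.9% and 21.3% were lower by 1.5 times. The day, the mouse, the library and the handling of the marrow cannot be told apart in these values.

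**Figure D5:**
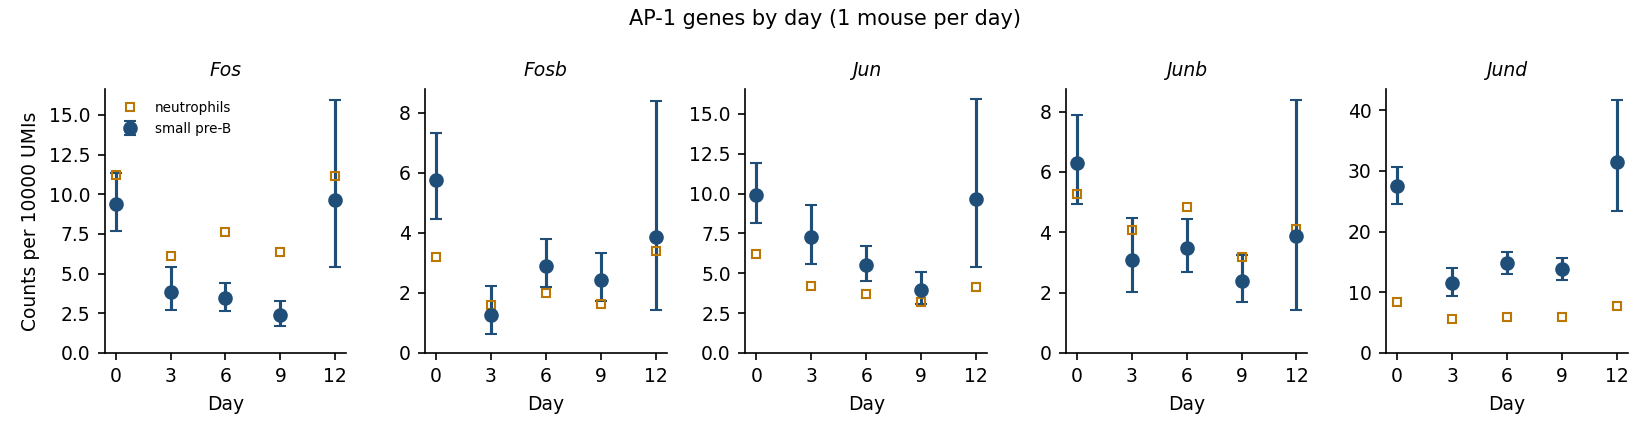
Levels of the AP-1 genes Fos, Fosb, Jun, Junb and Jund in counts per 10000 UMIs against the day after transplantation, 1 mouse per day; filled points are small pre-B cells with exact Poisson 95% intervals, open squares are neutrophils of the same library. Small pre-B cells are lower at days 3, 6 and 9 than at day 0 for all 5 genes, and neutrophils also are.

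Among the 10 genes higher than at day 0 at all of days 3, 6 and 9 with the largest smallest difference, 4 were neutrophil transcripts, *Pglyrp1* (1.34, 1.32 and 3.00 on the log2 scale), *Ltf* (1.19, 1.80 and 3.06), *Ifitm6* (1.44, 1.04 and 3.11) and *Wfdc21* (1.0, 0.91 and 2.61). They moved with the neutrophil list, which had medians of 0.79, 0.60 and 2.23. Of that list 7 of 8, 5 of 9 and 10 of 10 genes were higher by 1.5 times, where 11.2%, 11.3% and 10.4% of all genes were. From day 6 to day 9 the share of cells with a UMI went from 51.8% to 55.7% for *Pglyrp1* and from 56.6% to 50% for *Ltf*. It went from 26.5% to 31.4% for *Ifitm6* and from 67.5% to 48.6% for *Wfdc21*. Over 5% of UMIs came from *S100a8* and *S100a9* in 9 cells at day 9 and in 1 at each of days 0, 3 and 6. The part of these cells in the rise was not tested. The others of the 10 genes were *Lbh*, *Gm42418*, *Hmgn2*, the mitochondrial gene *mt-Nd3*, *Ndufa8* and *Tmem256*, at 0.87 to 1.81. *Hmgn2* is a nucleosome-binding protein, at 1.04, 1.34 and 1.81. Its level was 1.55, 3.29, 4.08 and 5.67 at days 0, 3, 6 and 9, below the 10.3, 7.62, 7.86 and 8.10 of neutrophils. Proliferation genes were higher by 1.5 times in 4 of 7, 5 of 10 and 6 of 9 cases (medians 0.68, 0.48 and 0.81). The part of neutrophil transcripts in these values was not tested. The median mitochondrial share of the cells was 3.74% at day 0 and 4.86%, 5.41% and 4.56% at days 3, 6 and 9. The part of these shares in the results was not tested.

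The 10 genes with the largest smallest decrease were *H2-DMa* (-3.08, -2.12 and -2.40), whose product helps to load MHC class II, *Ddit4* (-1.30, -1.97 and -2.89), a stress-induced inhibitor of mTORC1, *Fos*, *Rpl13a-ps1*, *Klf4* (-1.95, -1.18 and -2.70), *Baz1a*, *Ddt*, *B930036N10Rik*, *Fosb* and *Atrx*. *H2-DMa* had 31 UMIs in 9 of 59 cells at day 0 and 2, 10 and 7 UMIs at days 3, 6 and 9. The monocyte and macrophage markers were also below day 0 at days 3 and 9, with 5 of 5 and 3 of 4 lower by 1.5 times (medians -1.76 and -1.05), and at day 6 with 0 of 6 lower, 1 higher and a median of -0.14. Their part in these decreases was not tested. In all, 254 of 1412 genes were higher at all 3 days and 515 lower. Of the transcription factors of the B lineage 4 of 23 were lower by 1.5 times at day 3, 6 of 25 at day 6 and 9 of 23 at day 9, where 15.5%, 12.9% and 21.3% of all genes were, and 2, 2 and 1 were higher. Their median differences were -0.09, -0.31 and -0.41, against -0.05, -0.04 and -0.16 over all genes. Of the marker genes of the stage, *Dnajc7*, *Bach2* and *Cecr2* were past 1.5 times in neither direction at days 3, 6 and 9. *Akap12* was lower by 1.5 times at days 3 and 9 (-1.08 and -1.29) and not at day 6 (-0.48).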

How the data were processed

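Bone marrow cells of 5 mice, 1 per day, were sequenced with 10x Genomics 3' v2 chemistry. The authors made raw UMI counts per gene and barcode with Cell Ranger on mm10, and these counts are used as deposited, empty droplets included. Here barcodes with at least 500 UMIs and at most 10% mitochondrial UMIs were kept in Python 3.11.15, with no other filter against empty droplets. Levels are counts per 10000 UMIs, with 95% Poisson intervals. Differences between days were taken on log2(level + 0.1), for genes with at least 20 summed counts, and needed 20 cells in both libraries. Stages were compared with edgeR 4.0.16 (R 4.3.3), on counts summed per library and stage. Libraries needed 10 cells of both stages, which left out day 12. The 2 stages of a library come from the same mouse, so the library was a block. Genes with low counts were filtered with edgeR's filterByExpr. The 4 libraries are 4 mice killed at different days, so the p-values measure how the difference between stages varied among them. Alternatives used DESeq2 1.42.0, other scalings and filters, libraries left out, other gates and cells thinned to 1000 UMIs. The edgeR step was tested on simulated data. Scrublet in scanpy 1.11.5 marked 158 barcodes at day 0 and 0 to 3 in each other library, so it did not work there and no doublets were removed. It marked none of the small pre-B cells.

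The named genes were, per comparison, the 10 higher and the 10 lower with the largest log2 difference among those past the threshold, at 0.5 or more counts per 10000 UMIs in either stage and changed the same way in every library, without gate genes and V, D and J segments. Across days they were the 10 higher and the 10 lower at days 3, 6 and 9 with the largest smallest difference. Gate genes, the markers of the label and members of gene lists were also named. For cycling cells the rule was applied to those with 2 *Cd79a* UMIs, chosen after the data were seen. The cells, lists and tests were chosen with earlier results of these data known. Promoters and gene positions came from RefSeq (GRCm38.p6) and an annotation of GRCm38.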

Additional observations from a re-analysis of the deposited data

How the results depend on the processing

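The counts of genes called moved with the gate, the test and depth. Against pro-B and early pre-B cells, 224 genes were higher and 230 lower. The counts were 114 and 83 by DESeq2's Wald test, 104 and 88 with cells thinned to 1000 UMIs, and 126 to 242 and 98 to 259 with 1 library left out. The lower count was 397 with no filter on low counts and 150 with at least 2 Rag UMIs. Against all cycling cells, 944 higher and 1045 lower became 272 and 282 with thinned cells, 591 higher genes with 2 Rag UMIs, 1600 lower genes with no filter, and 663 to 908 and 742 to 1033 with 1 library left out. Against cycling cells with *Cd79a*, 873 and 1024 became 1039 and 873 with library sizes in place of TMM, 255 and 219 with thinned cells, 1703 lower genes with no filter, and 648 to 828 and 794 to 1002 with 1 library left out. Against mature B cells, 294 and 378 became 195 and 245 by the Wald test, 187 and 248 with 2 Rag UMIs, 606 and 239 with library sizes in place of TMM, 574 lower genes with no filter, 201 lower genes with thinned cells, and 224 to 342 and 303 to 400 with 1 library left out. Fewer genes pass the filter and fewer counts remain where cells are thinned or gated harder; the cause of the other changes was not tested. All 20 genes named in each comparison kept direction and call under every alternative that gave them a value.

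Without the library as a block (the replicate block of this design), 211 genes were higher and 198 lower against early cells, 981 and 1085 against all cycling cells, 915 and 1051 against cycling cells with *Cd79a*, and 279 and 358 against mature B cells.

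*Ran* against early cells turned to 0.020 with thinned cells. *Elane* against mature B cells was 1.91 without day 0, the highest value with 1 library left out, and turned to -0.47 without day 9, the lowest. It was -0.18 with 2 Rag UMIs, -0.28 without cells of over 5% neutrophil transcripts or 2 UMIs of another lineage, and -0.29 with 2 *Cd79a* UMIs. With a mitochondrial limit of 5% the shares of small pre-B cells were 0.878%, 0.524%, 0.712%, 0.705% and 0.149% from day 0 to day 12, so that day 0 in place of day 6 was the highest. The planned limit of 20 *S100a8* and *S100a9* UMIs gave 0.112%, 0.0821%, 0.0331%, 0.0720% and 0% from day 0 to day 12, since nearly every small pre-B cell held that many, and the limit of 5% of UMIs was added after the data were seen. The median AP-1 difference stayed between -0.61 and -1.47 under every alternative tried. With 1 mouse per day and a median of 1727 UMIs per cell, differences between days have no replicate check, and genes at a few UMIs are known only to the width of their counting intervals.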
